A study of Danio rerio with 26 samples.

Results

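Close pairs of accessible sites were examined in the consensus peak set of wild-type zebrafish embryos. Peaks on chromosomes 1 to 25 were chained whenever the gap to the next peak was 2000 bp or less. A close pair is a chain of exactly 2 peaks whose gap, the stretch between the end of the first and the start of the second, is 500 bp or less. The pairs were thus selected on the listed positions themselves, so their gaps are given as a description and no test was made of them. There were 804 close pairs, whose 1608 peaks made up 6.30% of the 25521 peaks on the chromosomes and 6.19% of all 25975 listed peaks. The list is a single set without replicates. Percentages carry exact Clopper-Pearson 95% intervals and numbers per bin carry exact Poisson 95% intervals, both of which cover counting error only.

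The set comes from 17 ATAC-seq libraries of wild-type whole embryos, freed of yolk, at 7 stages. There were 3 libraries each at the high, oblong and dome stages and 2 each at the 256-cell, sphere, shield and 80% epiboly stages. The other 9 libraries, 2 each of pou5f3-KO, sox19b-KO and nanog-KO embryos and of alpha-amanitin treated embryos, all at oblong, and 1 of tagmented nucleosome-free genomic DNA, gave no peaks to this list. The list holds positions only, so the stage at which either peak of a pair was called and the read depth behind it are unknown here.

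In chromatin, DNA is wrapped around histone octamers, and the wrapped stretches, the nucleosomes, are separated by linker DNA. ATAC-seq uses the Tn5 transposase, which inserts adapters where DNA is not wrapped. The shortest fragments come from within a single open stretch, and peaks of these fragments mark nucleosome-free regions such as active promoters and enhancers, where bound factors hold nucleosomes away. A gap that can hold 1 nucleosome between 2 open stretches is known from promoters, where nucleosomes flank the start site in an ordered array, and from enhancers with several bound elements. A gap in a peak list measures where the signal fell below the calling threshold, and does not by itself show a nucleosome.

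In most pairs the gap was long enough to hold the DNA of a nucleosome. Numbers per 50 bp bin were highest between 100 and 250 bp, a range chosen after the values were seen. This range held 42.5% of the gaps, so most gaps lay outside it. The gaps ran from 3 to 499 bp, with a median of 258 bp (quartiles 175 and 382 bp, n = 804 pairs). Taking 150 bp as a length close to the DNA of 1 nucleosome, 660 gaps (82.1%) reached this length and 144 gaps (17.9%, 95% interval 15.3 to 20.7%) were shorter than this. Of the longer gaps, 320 (39.8% of all gaps, 36.4 to 43.3%) were under 300 bp, room for 1 nucleosome with linker DNA but not for a pair of nucleosomes. The other 340 (42.3%, 38.8 to 45.8%) were of 300 bp or more. The rule admits any gap up to 500 bp, and a majority of at least 150 bp was not particular to close pairs. Of the 458 gaps of 500 bp or less inside chains of 3 or more peaks, 17.0% (13.7 to 20.8%) were under 150 bp. A further 34.1% (29.7 to 38.6%) were of at least 150 and under 300 bp, and 48.9% (44.2 to 53.6%) were of 300 bp or more. These differences were not tested.

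Very short gaps were few. Only 9 gaps were under 50 bp and 34 were at least 50 and under 100 bp. The number per 50 bp bin then rose to 101 between 100 and 150 bp, 121 between 150 and 200 bp and 120 between 200 and 250 bp. From 250 bp to the limit, the bins held 78 to 91 gaps each. The range of 100 to 250 bp, chosen after the values were seen, held 342 gaps or 42.5% of all pairs (39.1 to 46.0%), which is 114 per bin (Poisson interval 102 to 127). The 419 gaps from 250 bp to the limit gave 83.8 per bin (76.0 to 92.2). In bins of 25 bp the fullest was the one from 200 bp, with 68 gaps, and those from 150 and 175 bp had 57 and 64, so the maximum was broad at this bin size. Bins of 10 bp were uneven. The one from 200 bp held 37 gaps, against 31 before it and 19 after it. The one from 100 bp held 28, against 14 before and 10 after. Gaps of exactly 200 bp, which is also the narrowest peak width in the list, were found on several chromosomes. They outnumbered gaps of 199 bp and of 201 bp. All of them fall in the fullest bins of 10 and 25 bp, so the place of these maxima leans on this single value. The part of peak calling in this was not tested. Bins of 50 bp at about 2 times this length held fewer gaps, with 89, 78, 82 and 91 from 300 bp to the limit.

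**Figure D1:**
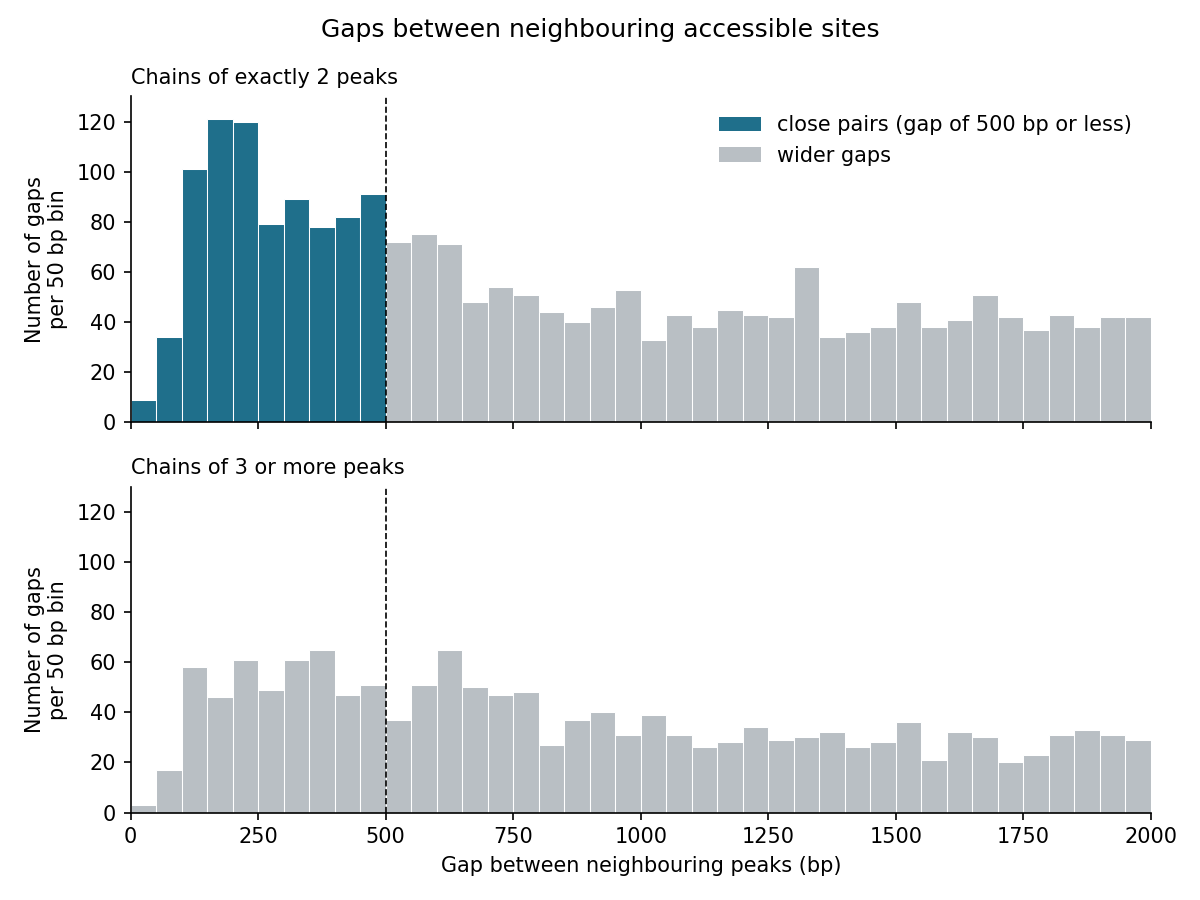
Number of gaps per 50 bp bin against gap length in bp, for chains of exactly 2 peaks (top, close pairs in blue, wider gaps in grey) and for chains of 3 or more (bottom); the dashed line is the limit of 500 bp. The top panel is fullest between 100 and 250 bp, with 101 to 121 gaps per bin, and bins between 1000 and 2000 bp hold 33 to 62; in the bottom panel, the bins between 100 and 500 bp hold 46 to 65.

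Beyond the limit, the chains of 2 that were not counted as close pairs thinned out. Their bins held 55.4 gaps on average between 500 and 1000 bp (50.9 to 60.2) and 41.8 between 1000 and 2000 bp (39.0 to 44.7). The last bin inside the limit held 91 gaps and the first bin outside it held 72, and in bins of 25 bp the numbers were 48 on the inner side and 30 and 42 on the outer side. Of the chains nearest to it, 3 inside had gaps of 499 bp and 3 outside had gaps of at most 502 bp.

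Peaks that the rule left out showed a like scarcity of short gaps, and their gaps were not visibly fuller between 100 and 250 bp. That range was chosen after the gaps of the close pairs were seen, so this is no independent comparison of both kinds. Of 1262 gaps of 500 bp or less on the chromosomes, 804 (63.7%) belonged to close pairs, and 458 lay inside chains of 3 or more peaks. Short gaps were scarce in both, with 43 gaps under 100 bp in the close pairs (5.35%, 3.90 to 7.14%), against 20 in the longer chains (4.37%, 2.69 to 6.66%). Gaps of 100 to 250 bp made up 42.5% of the close pairs, against 36.0% in the longer chains (31.6 to 40.6%). The longer chains held 55.0 gaps per bin in this range (46.9 to 64.1) and 54.6 from 250 to 500 bp (48.3 to 61.5). In close pairs these numbers were 114 and 83.8. The median gap was 258 bp in close pairs (95% interval of the median 246 to 275 bp) and 293 bp in the longer chains (270 to 321 bp). For these shares and medians, the intervals of close pairs and longer chains overlap, and the differences were not tested.

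The distance between midpoints, which adds the mean width of both peaks to the gap, showed no single preferred value. Its median was 626.5 bp (quartiles 510 and 751 bp, range 249 to 1261.5 bp). Distances under 400 bp were found in 38 pairs (4.73%). The fullest bin, with 94 pairs, was the one from 450 to 500 bp, and the bins after it held 93, 88, 83, 80, 76 and 83 pairs up to 800 bp. These 6 bins from 500 to 800 bp together held 503 pairs (62.6%, 59.1 to 65.9%).

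**Figure D2:**
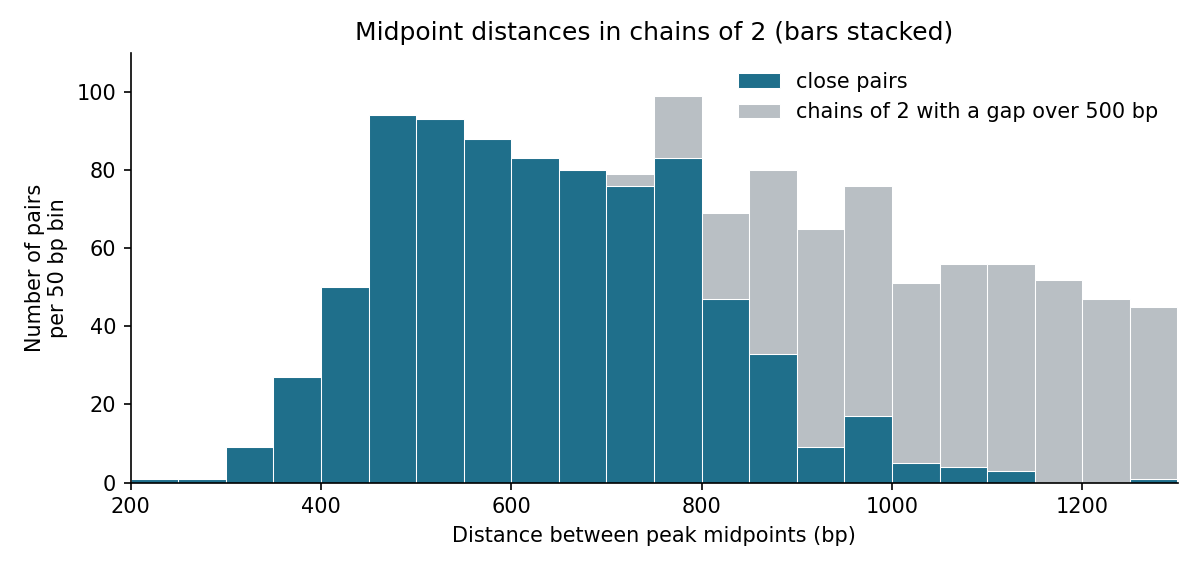
Number of chains of 2 per 50 bp bin against the distance between peak midpoints in bp, with close pairs in blue and chains with a gap over 500 bp stacked on them in grey. Close pairs fill the bins from 450 to 800 bp at 76 to 94 each and thin out beyond, where the grey bars add to them.

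The limit on the gap bounds these distances from above. With the wider chains of 2 added, the bin from 750 to 800 bp held 99 pairs, more than any other bin up to 1300 bp, and those from 800 to 1000 bp held 65 to 80. Across pairs, which are not independent replicates, the midpoint distance followed the gap (Pearson's r = 0.80, Spearman's rho = 0.83) and, less closely, the summed width (r = 0.63, rho = 0.55, n = 804), as it must from how it is built up.

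The length of the gap showed little relation to the widths of the peaks. Between gap and summed width, r was 0.04 and rho 0.04 across the 804 pairs. The narrower peak had a median of 300 bp in the 43 pairs with gaps under 100 bp, of 289 bp in the 101 pairs between 100 and 150 bp, of 272 bp in the 120 pairs between 200 and 250 bp and of 284 bp in the 173 pairs from 400 bp on. The wider peak had medians of 426, 367, 391.5 and 405 bp in the same classes. In 454 pairs (56.5%, 53.0 to 59.9%), the gap was shorter than the narrower of the peaks beside it.

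The first and the second peak of the pairs had similar widths. The first peak, the one with the lower coordinate, had a median of 330 bp (quartiles 273 and 406 bp) and the second of 328 bp (276 and 403 bp). The first was wider in 385 pairs (47.9%, 44.4 to 51.4%), the second in 416 and neither in 3. Coordinates run along the reference strand whatever the direction of a gene, so first and second carry no meaning for transcription.

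Within a pair, the widths were unequal to a varying degree. The narrower peak had a median of 290 bp and the wider one of 389 bp, and the wider was 1.32 times the narrower at the median (quartiles 1.15 and 1.64). The widths lay within 10% of each other in 144 pairs (17.9%), the wider was at least 1.5 times the narrower in 277 pairs (34.5%, 31.2 to 37.9%) and at least 2 times in 96 pairs (11.9%). In chains of 2 with wider gaps, the ratio had a median of 1.33 and reached 1.5 in 36.2% (33.7 to 38.8%, n = 1392). The width of 1 peak said little about that of its partner, with r = -0.03 and rho = 0.01 in close pairs and r = 0.04 and rho = 0.01 in the wider chains.

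**Figure D3:**
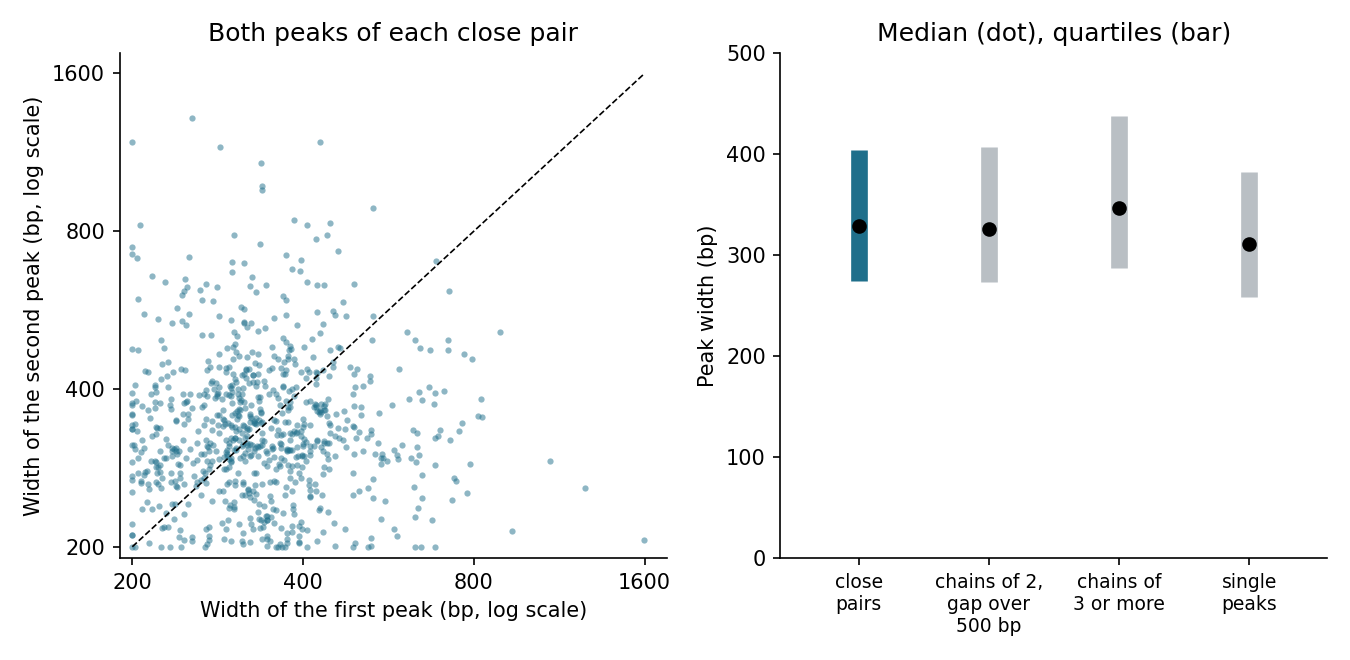
Left, width of the first against the second peak of each of the 804 close pairs (bp, both axes logarithmic; the dashed line marks equal widths); right, median and quartiles of peak width in bp by kind of chain. The points scatter evenly about the line, and the medians are 329 bp in close pairs, 326 bp in wider chains of 2, 347 bp in chains of 3 or more and 311 bp in single peaks.

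The median width of peaks in close pairs lay close to that in chains of 2 with wider gaps, and above that of peaks on their own. The 1608 peaks of close pairs had a median of 329 bp (95% interval of the median 322 to 335 bp), against 326 bp in chains of 2 with wider gaps (322 to 330 bp, n = 2784), 347 bp in chains of 3 or more (339 to 352 bp, n = 2082) and 311 bp in single peaks (310 to 313 bp, n = 19047). Over all chromosome peaks the median was 316 bp. Peaks of 600 bp or more made up 6.22% of the peaks in close pairs (5.09 to 7.51%), against 5.06% in wider chains of 2 (4.28 to 5.95%), 9.03% in chains of 3 or more (7.83 to 10.3%) and 3.47% of single peaks (3.21 to 3.73%).

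Peaks of exactly 200 bp, the narrowest width in the list, numbered 37 of 1608 in close pairs (2.30%, 1.63 to 3.16%). They made up 2.84% of the peaks in wider chains of 2 (2.25 to 3.52%) and 2.16% in chains of 3 or more (1.58 to 2.88%). Of single peaks, 680 of 19047 had this width (3.57%, 3.31 to 3.84%). The share was thus lower in each kind of chain than in single peaks. Among close pairs, 36 held a peak of this width, and in 1 pair both peaks had it. These differences were not tested, since the peaks come from 1 list with no replicate.

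A whole pair, from the start of its first to the end of its second peak, spanned 963 bp at the median (quartiles 831 and 1118 bp, range 449 to 2163 bp). Peaks covered 73.1% of this span at the median (quartiles 65.0 and 80.7%).

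The pairs at the ends of these distributions show how different they can be. The smallest gap, 3 bp, was on chromosome 13 (Zv10), between a peak of 524 bp from 44881538 to 44882061 and one of 423 bp from 44882065 to 44882487. It was followed by a gap of 11 bp on chromosome 3, between 39287422 to 39287647 and 39287659 to 39288104, and one of 20 bp on chromosome 15, between 40127515 to 40127794 and 40127815 to 40128199. Next came 23 bp on chromosome 9, between 3576772 to 3577144 and 3577168 to 3577601, and 34 bp on chromosome 2, between 40416581 to 40416791 and 40416826 to 40417257. In these 5 pairs, the peaks measured 211 to 524 bp and the midpoints lay 347 to 476.5 bp apart.

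The 5 widest peaks of close pairs had partners of 200 to 428 bp. On chromosome 7, a peak of 1597 bp from 73594502 to 73596098 was followed after 360 bp by one of 206 bp from 73596459 to 73596664, which gave the largest width ratio of all close pairs (7.75) and the longest span. On chromosome 8, a peak of 1318 bp from 1200374 to 1201691 had a partner of 255 bp at 149 bp before it, and one of 1184 bp from 45402794 to 45403977 had a partner of 200 bp at 248 bp before it. On chromosome 10, a peak of 1255 bp from 10944386 to 10945640 was followed after 327 bp by one of 259 bp. On chromosome 17, a peak of 1182 bp from 41895298 to 41896479 lay 275 bp after one of 428 bp. The pair on chromosome 7 had 24 other peaks within 50 kb of its first peak. Its next peaks on either side were at 2.21 and 2.01 kb, close to the chaining distance.

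Other pairs stood alone. On chromosome 2, the pair of 17820279 to 17820601 and 17820788 to 17821145, with a gap of 186 bp, had no other peak for 376 kb before and 308 kb after it. On chromosome 15, the pair from 13085497 to 13086602, with a gap of 482 bp, had none for 321 and 260 kb. The pair on chromosome 2 with the gap of 34 bp was the third by this measure, at 245 kb to its nearer neighbour. The pair on chromosome 4 from 75183107 to 75183834, with a gap of 188 bp, and that on chromosome 9 from 50906817 to 50907914, with a gap of 139 bp, followed at 227 and 225 kb. In 3 of these 5 pairs, the gap was between 100 and 250 bp, against 42.5% of all close pairs. A count over 5 pairs is too small to set them apart.

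A region of chromosome 25, taken as an example and not by a rule on the listed positions, held 1 close pair. This pair had a peak of 825 bp from 18210523 to 18211347 and one of 383 bp from 18211716 to 18212098. Its gap of 368 bp and midpoint distance of 972 bp lay above the median of the close pairs, and its wider peak was over 2 times as wide as the median wider peak. The next peaks were 14.6 kb before and 21.9 kb after it. Just inside the gap limit, the pairs with gaps of 499 bp ran from 51499321 to 51500439 on chromosome 7, from 24541082 to 24542191 on chromosome 19 and from 23326360 to 23327801 on chromosome 20. Just outside it, the chains ran from 15061431 to 15062561 on chromosome 2, from 61284546 to 61286019 on chromosome 3 and from 52780149 to 52781424 on chromosome 8. No peak is assigned to a gene here, since no annotation of this build was used.

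**Figure D4:**
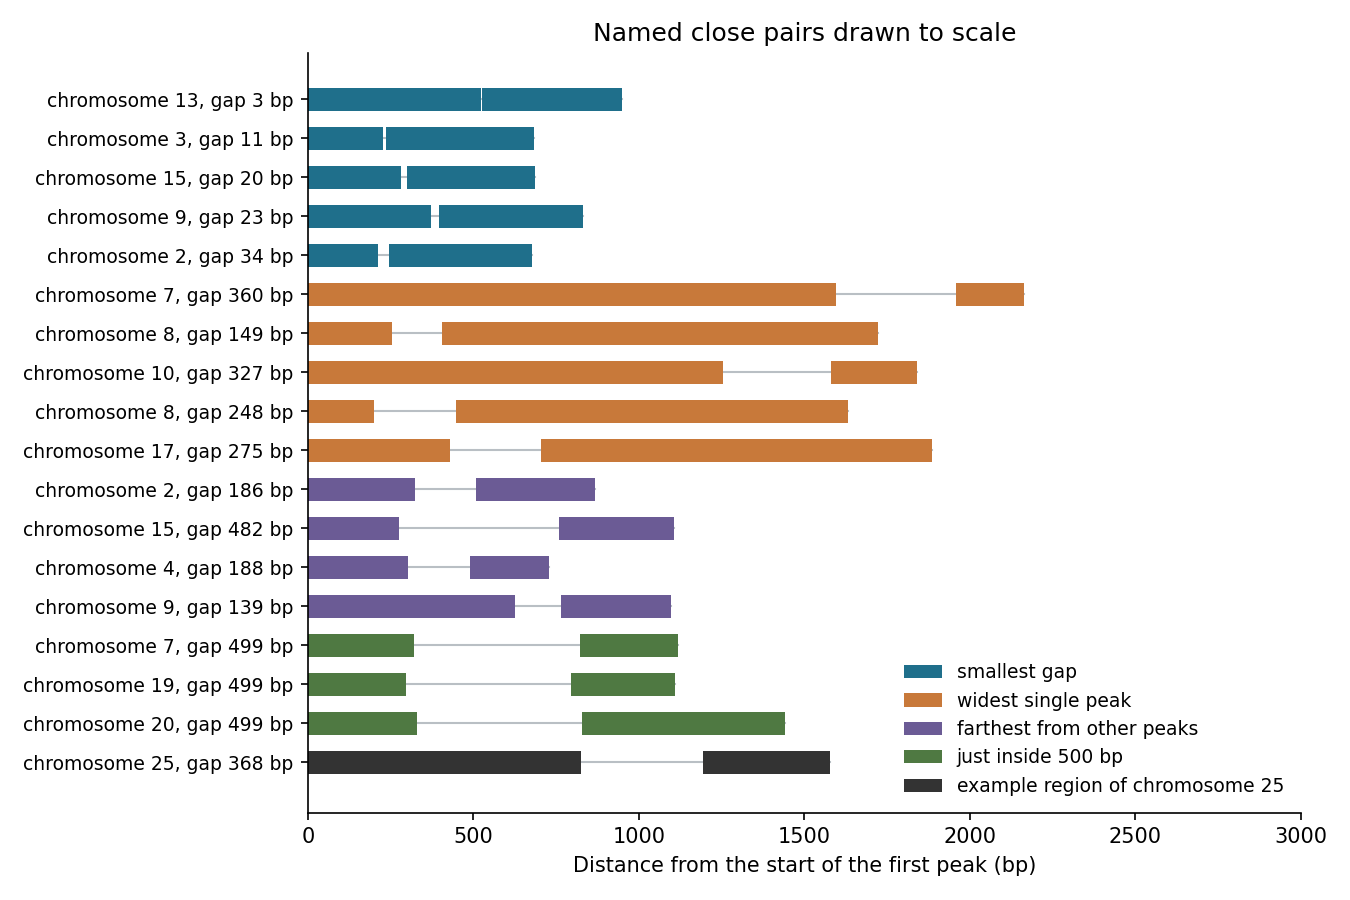
Named close pairs drawn to scale, 1 pair per row, with peaks as blocks and the gap as a thin line, against the distance in bp from the start of the first peak; colours give the reason for naming the pair. Gaps run from 3 bp in the first row to 499 bp, and in the rows of the widest peaks 1 block is far longer than the other.

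Every chromosome had close pairs, from 13 on chromosome 22 to 54 on chromosome 5. Set against the number of peaks, they ranged from 1.83 pairs per 100 peaks on chromosome 22 (0.978 to 3.11) to 4.24 on chromosome 20 (3.09 to 5.68, 43 pairs), with 3.10 ± 0.516 over chromosomes (SD, n = 25) and 3.15 in all chromosomes together. After chromosome 20 came chromosomes 8, 23 and 6 with 3.78, 3.69 and 3.68 pairs per 100 peaks, and above chromosome 22 came chromosomes 14 and 21 with 2.37 and 2.54. The interval of 24 chromosomes held the value of 3.15, and that of chromosome 22 ended just under it. Chromosome 22 had 55 chains of 2, of which 23.6% were close pairs, against 36.6% in all chromosomes. All 25 intervals overlapped one another, also those of chromosomes 22 and 20 at the ends of this order. The 25 intervals were not adjusted for their number, and no chromosome was tested against the others. They take each peak as a trial, though a pair takes up 2 peaks, so they are approximate.

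**Figure D5:**
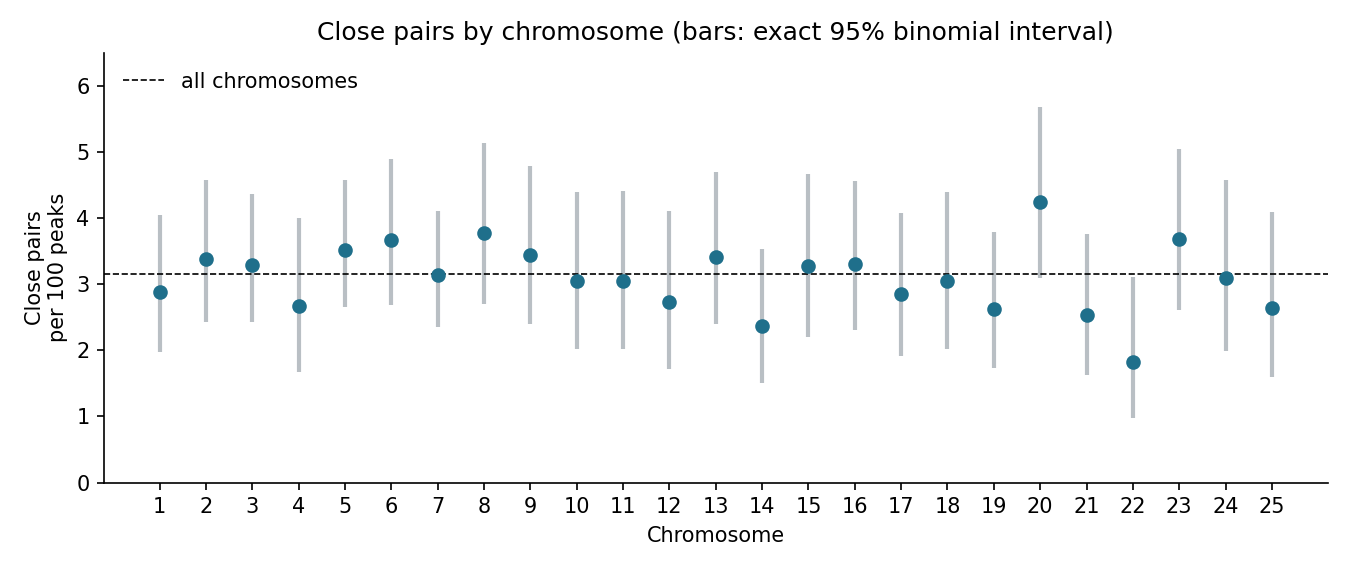
Close pairs per 100 peaks on each of the 25 chromosomes, with 95% binomial intervals as bars and the value of all chromosomes together, 3.15, as a dashed line. The intervals take each peak as a trial, though a pair takes up 2 peaks, so they are approximate. The points lie between 1.83 on chromosome 22 and 4.24 on chromosome 20, and the interval of chromosome 22 is the one that does not reach the line.

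The spacing within pairs by chromosome rested on few pairs each. The median gap ran from 181.5 bp on chromosome 24 (24 pairs) to 334 bp on chromosome 25 (19 pairs), with a mean of 264 ± 41.7 bp over chromosomes (SD, n = 25). Gaps of 100 to 250 bp made up 25.9% of the pairs on chromosome 18 (7 of 27) and 63.6% on chromosome 12 (14 of 22), and 42.9% on the median chromosome. These values were not compared further.

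The mean number of other peaks around close pairs lay between those around wider chains of 2 and around single peaks. By the median, close pairs equalled single peaks. Peaks were counted by midpoint within 50 kb of the midpoint of the single peak or of the first peak of a chain, without its partner. Close pairs had 2 such peaks at the median and 3.27 ± 3.03 on average (SD, n = 804 pairs). Chains of 2 with wider gaps had 3 and 3.71 ± 3.34 (n = 1392), and single peaks had 2 and 2.95 ± 2.83 (n = 19047). By this count, 110 close pairs had no other peak within 50 kb (13.7%, 11.4 to 16.3%). The same held for 11.3% of wider chains of 2 (9.66 to 13.1%) and 16.6% of single peaks (16.1 to 17.1%). The nearer of both flanking peaks was 12.2 kb away at the median (quartiles 4.72 and 30.3 kb), against 9.56 kb for wider chains of 2 and 14.3 kb for single peaks. The rule sets a lower bound of 2000 bp on this distance in each of these kinds.

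The share of close pairs near the ends of the chromosomes was higher than that of single peaks. Within 1 Mb of the first or last peak lay 85 of 804 close pairs (10.6%, 8.53 to 12.9%), against 127 of 1392 wider chains of 2 (9.12%, 7.66 to 10.8%) and 1247 of 19047 single peaks (6.55%, 6.20 to 6.91%). Of all chromosome peaks, 7.50% lay there. Per 100 peaks, there were 4.44 close pairs within these ends (3.56 to 5.47) and 3.05 elsewhere (2.83 to 3.27). Rates per peak do not adjust for how densely peaks lie, which was not compared between the ends and elsewhere. The intervals of these 2 rates take each peak as a trial, though a pair takes up 2 peaks, so they are approximate. The difference was not tested.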

How the data were processed

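The authors trimmed ATAC-seq reads (cutadapt 1.9.1), aligned them to Zv10 (Bowtie2 2.2.4), and left out duplicate, mitochondrial and poorly mapped reads. Peaks of short, nucleosome-free fragments were called with MACS2 2.1.1 against tagmented genomic DNA, per stage on pooled replicates, kept where every replicate had them, and merged over wild-type stages at any overlap. MACS2 sets a minimum peak length and joins stretches that lie close together, and merging joins overlapping peaks. The part of these steps in the scarcity of short gaps was not tested. Peaks of different stages that do not overlap stay apart, so both peaks of a pair need not be open at 1 stage.

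The deposited positions are in bp, as chromosome, start and end. Starts count from 0, since 3 listed peaks start at 0, and are printed counted from 1. Gaps, widths and midpoints were computed in Python 3.11.15 (numpy 2.4.6, pandas 2.3.3, scipy 1.17.1, and matplotlib 3.10.9 for plots), and the chaining was checked on simulated peaks. Bins exclude their upper bound. The pairs named are the 5 with the smallest gap, the 5 with the widest peak and the 5 farthest from other peaks. Added to these are 3 chains on either side of the gap limit and the pair in the example region of chromosome 25. The members and classes were chosen with earlier results of these data known. No test was run, since the list holds no samples. Alternatives were other chaining distances, gap limits, bins and start conventions, and leaving out peaks of 200 bp, chromosome 4 or gaps under 50 bp. Sequence and genes of Zv10 were not used here.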

Additional observations from a re-analysis of the deposited data

Results flagged for a closer look

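On unplaced scaffolds, which the rule for close pairs leaves out, the same chaining gave 17 close pairs among 37 chains of 2 and 454 peaks. These were listed since they lie outside the chromosomes described above. Of their 17 gaps, 9 were between 100 and 250 bp, a range that held 42.5% of the gaps of close pairs on the chromosomes.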

How the results depend on the processing

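Of 48 alternative values, 45 stayed within 1.5 times the number of pairs, within the 95% interval of the median or share, or on the same bin or chromosome. Many of them restate the same pairs, so this is no rate of stability. The number of pairs followed its gap limit, with 468 pairs at 300 bp and 1359 at 1000 bp, against 804. Medians and shares, which depend on this limit, were not computed at the other limits and are not among the 48 values for them. In bins of 25 bp the fullest gap bin started at 200 bp, in place of 150 bp in bins of 50 bp. That bin of 25 bp holds all gaps of exactly 200 bp. Chaining at 1000 or 5000 bp gave 961 or 589 pairs with median gaps of 266 or 258 bp. Over all alternatives of chaining, counting and left-out peaks, the median midpoint distance stayed between 622 and 635 bp. Chromosome 20 had the most pairs per 100 peaks at each chaining distance. No replicate could be left out and no paired analysis was possible because the positions carry no values by library. Sequencing depth, which the list does not give, limits which sites and so which gaps were found.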

Other observations

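In bins of 1 Mb, close pairs were spread thinly. Of the bins with any close pair, 373 held 1, 137 held 2, 39 held 3 and 10 held 4, and none held more. Among the 10 bins with 4 pairs, 4 were the first or last bin of a chromosome with a peak, namely the first of chromosomes 1, 6 and 16 and the last of chromosome 13. In this order, these end bins held 43, 49, 46 and 40 peaks. The share of end bins among all bins was not counted, nor was the usual number of peaks per bin. The 4 end bins therefore show no excess of close pairs at the ends. The other bins with 4 pairs were on chromosomes 6, 15, 20 and 23 and held 23 to 49 peaks. The bin on chromosome 20 from 23000001 to 24000000 had 23 peaks, of which 8 were in close pairs.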
